A study of Mus musculus with 11 samples.

Results

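The cell cycle and mitosis genes described here are a list of 53 mouse genes: the D and E cyclins with their kinases and inhibitors, the pocket proteins with E2f and Myc, the DNA replication genes, the regulators of entry into mitosis, spindle and checkpoint genes, and Chfr with the microtubule genes Clasp1 and Clasp2. Every probe whose accession led to one of these symbols was taken. The dimmer Clasp2 probe was named only from a table of probes that the authors had selected by their own comparison. Of the 53 genes, 50 had a named probe and 48 had a tested one, out of 17021 named genes with a probe and 11820 with a tested probe; Ccnd1, Mki67 and Clasp1 had no probe named here, and no probe of Ccnd2 or Cdk6 was bright enough to test. Chfr was chosen by its measured signal, higher with both siRNAs than in control, and Clasp2 by the same earlier results, so the values of Chfr and Clasp2 against control are given as a description, without a test.

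RNA came from MLTC-1 cells, a line of mouse Leydig tumor cells (MLTCs), the testosterone-producing cell type of the testis. MLTCs were transfected for 48 h, with Lipofectamine RNAiMAX, with 20 nM of a non-targeting RNA (4611G) as control (4 arrays), of siRNA1 (4 arrays) or of siRNA2 (3 arrays), where siRNA1 and siRNA2 are small interfering RNAs of different sequence against Mamld1, a gene in which variants cause hypospadias. The study's methods add stimulation with human chorionic gonadotropin at the end of the culture, which the labels do not name, and they count viable cells in a separate assay. All the groups were this 1 tumor line, so the levels are those of a dividing cell line and not of the testis.

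Cells duplicate their DNA in S phase and separate it in mitosis. D and E cyclins with Cdk4, Cdk6 and Cdk2 phosphorylate the pocket proteins (Rb1, Rbl1 and Rbl2), which frees E2f factors to transcribe the genes of DNA replication, and Cdk inhibitors hold these kinases back. Origins are licensed by loading the Mcm helicase with Cdc6 and Cdt1, and entry into mitosis follows when Cdc25 phosphatases remove the inhibiting phosphates that Wee1 puts on Cdk1. The spindle assembly checkpoint (Mad2l1, Bub1, Bub1b) then delays Cdc20 until chromosomes are attached, while Chfr, a ubiquitin ligase, delays entry into mitosis when microtubules are disturbed.

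Promoter sequences are shown first for the 4 replication genes called between the siRNAs (Mcm3, Mcm5, Mcm7 and Cdc6) and for Cdk4, Aurka and Chfr, on which other results turn. They are RefSeq promoters of GRCm38.p6, from 250 bases before to 50 bases after the start of transcription, and 39 of the 53 genes had one. Capitals mark an E2F word (TTTGGCGC, TTTCCCGC, TTTGCCGC or TTTCGCGC, on either strand) in the first 4 sequences (for Mcm7, another listed start held no such word), the E-box CACGTG in Cdk4, the cell cycle homology region word TTTGAA in Aurka and the CCAAT box in Chfr. The windows are chr1:20820263-20820562 on the minus strand for Mcm3, chr8:75109259-75109558 on the plus strand for Mcm5, chr5:138171834-138172133 on the minus strand for the first of the starts listed for Mcm7, chr11:98907901-98908200 on the plus strand for Cdc6, chr10:127063285-127063584 on the plus strand for Cdk4, chr2:172370521-172370820 on the minus strand for Aurka and chr5:110135580-110135879 on the plus strand for Chfr.
Mcm3: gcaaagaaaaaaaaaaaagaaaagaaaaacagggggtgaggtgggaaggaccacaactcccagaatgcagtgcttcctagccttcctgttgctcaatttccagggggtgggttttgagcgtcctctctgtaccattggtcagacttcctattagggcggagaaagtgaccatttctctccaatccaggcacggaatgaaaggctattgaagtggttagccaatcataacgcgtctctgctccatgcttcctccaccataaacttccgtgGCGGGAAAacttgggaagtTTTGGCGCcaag
Mcm5: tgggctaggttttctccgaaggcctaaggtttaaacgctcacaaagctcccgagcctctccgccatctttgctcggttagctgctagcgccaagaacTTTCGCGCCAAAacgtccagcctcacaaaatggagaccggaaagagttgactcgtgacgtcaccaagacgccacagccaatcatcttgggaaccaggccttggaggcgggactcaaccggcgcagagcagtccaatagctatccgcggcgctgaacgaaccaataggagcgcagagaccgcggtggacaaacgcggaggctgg
Mcm7: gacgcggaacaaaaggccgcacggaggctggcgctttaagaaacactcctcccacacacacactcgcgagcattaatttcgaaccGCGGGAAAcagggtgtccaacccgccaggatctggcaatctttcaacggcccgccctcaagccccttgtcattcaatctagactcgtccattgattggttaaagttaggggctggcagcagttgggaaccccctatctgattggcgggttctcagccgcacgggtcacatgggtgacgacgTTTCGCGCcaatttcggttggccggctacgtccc
Cdc6: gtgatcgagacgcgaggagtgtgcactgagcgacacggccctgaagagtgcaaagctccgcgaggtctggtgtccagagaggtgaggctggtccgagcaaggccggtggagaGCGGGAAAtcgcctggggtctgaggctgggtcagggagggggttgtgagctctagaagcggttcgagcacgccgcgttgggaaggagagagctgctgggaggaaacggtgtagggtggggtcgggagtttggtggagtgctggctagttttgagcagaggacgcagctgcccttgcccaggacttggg
Cdk4: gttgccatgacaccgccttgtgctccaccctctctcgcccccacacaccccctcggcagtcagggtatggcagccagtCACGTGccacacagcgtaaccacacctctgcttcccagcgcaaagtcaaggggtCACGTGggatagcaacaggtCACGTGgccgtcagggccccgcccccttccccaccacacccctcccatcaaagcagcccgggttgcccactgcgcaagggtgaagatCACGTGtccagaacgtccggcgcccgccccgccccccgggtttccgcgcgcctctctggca
Aurka: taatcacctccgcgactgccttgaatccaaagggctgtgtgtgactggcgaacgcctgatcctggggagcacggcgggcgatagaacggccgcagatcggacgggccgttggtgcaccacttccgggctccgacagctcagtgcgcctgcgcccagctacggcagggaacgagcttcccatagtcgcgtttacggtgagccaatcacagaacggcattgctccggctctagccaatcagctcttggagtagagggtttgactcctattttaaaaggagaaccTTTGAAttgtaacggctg
Chfr: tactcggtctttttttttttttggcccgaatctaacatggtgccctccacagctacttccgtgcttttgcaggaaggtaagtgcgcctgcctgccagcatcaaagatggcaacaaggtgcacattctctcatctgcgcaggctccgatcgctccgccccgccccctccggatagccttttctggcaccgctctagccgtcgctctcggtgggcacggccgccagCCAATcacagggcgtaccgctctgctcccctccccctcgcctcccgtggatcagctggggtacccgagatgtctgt

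An E2F word was found in the promoters of 6 of the 8 replication genes with a sequence (75%), namely Mcm3, Mcm5, Mcm6, Mcm7, Cdc6 and Cdt1, against 744 of all 32851 promoters of the same length (2.26%). Counted like the listed genes, by gene with any of its listed starts, this was 704 of 27025 genes (2.6%). An E2F word was found in 13 of the 39 listed genes, among them Rbl1. In Mcm5 the words overlap, so that their capitals run together. None of the 10 spindle and checkpoint genes with a sequence held one, while 7 of these 10 held TTTGAA, against 17.9% of all promoters and 20.2% of genes. CCAAT stood in 29 of the 39 listed genes, in 37.4% of all promoters and in 41.1% of genes. The E-box CACGTG occurred 4 times in the Cdk4 promoter and at least once in 7.15% of all promoters. A match of letters is a description of the sequence; no binding was measured.

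Signals are Agilent one-colour intensities scaled to the 75th percentile of each array and given for each probe in percent of its own control level (geometric mean, 4 arrays), so that values of different probes cannot be set against each other. A gene stands for its brightest tested probe. Of the 18 listed genes with several tested probes, the probes differed in sign for 4 with siRNA1, 6 with siRNA2 and 2 between the siRNAs. Differences are in mean log2 signal with 1 standard error (SE), and a gene was called where the limma p, adjusted after Benjamini and Hochberg over all 24248 tested probes, was at most 0.05. The labels do not say whether arrays of a group came from separate cultures, so the p-values measure the spread between these arrays, whose number limits the precision. The arrays lay on 3 slides, each holding all groups, and deviations from the group means correlated more within a slide (median r 0.30 over 13 pairs of arrays) than between slides (median r -0.12 over 27 pairs). Signals were well above background for all 7 Leydig cell markers on every array, of which Cyp17a1 was called lower with both siRNAs (-0.92 and -0.48) and Lhcgr with siRNA1 (-0.63). Of the 3 Sertoli cell markers, Amh and Dhh were above background on all arrays and Sox9 on none, and Dhh was called higher with siRNA2 (0.72). Of the 3 germ cell markers, Mael was above background on no array and Dazl, by 1 probe, on 1 siRNA1 array. The germ cell marker Ddx4 was above it on all control and siRNA2 arrays and on 1 of the 4 siRNA1 arrays, and differed from control by -1.72 ± 0.22 with siRNA1 (adjusted p = 0.000197). The endothelial marker Cdh5 was above background on all arrays and called higher with both siRNAs, by 1.22 ± 0.11 (adjusted p = 2.14e-05) and 0.84 ± 0.12 (adjusted p = 0.000652), whereas Tek was so on none and Pecam1 on 1 array of each siRNA. The macrophage markers Ptprc and Adgre1 were above background on no array, and the part of any of these markers in the results was not tested.

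Mamld1 itself measured 88.0%, 85.2%, 119% and 112% on control arrays 1 to 4, 46.6%, 77.0%, 48.1% and 44.1% on siRNA1 arrays 1 to 4, and 45.3%, 68.6% and 65.5% on siRNA2 arrays 1 to 3. Neither siRNA group overlapped the control arrays, and the log2 difference was -0.93 ± 0.20 (adjusted p = 0.0057) with siRNA1 and -0.77 ± 0.22 (adjusted p = 0.0309) with siRNA2. Under the normexp background correction both signs turned, to 0.65 and 0.44, and neither was called. With the highest local backgrounds of each array set to its median in that correction, the values were -0.40 (adjusted p = 0.0062) and -0.19 (adjusted p = 0.267). The siRNA2 call was also lost on leaving out control array 3 or 4 or siRNA2 array 1 or 3, with an adjusted p of up to 0.119.

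Against control, 9 of the 48 tested genes were called in siRNA1-transfected MLTCs (5 higher and 4 lower, 18.8%), where 27% of all tested probes were called. In siRNA2-transfected MLTCs 7 were called (4 higher and 3 lower, 14.6%), where 18.4% of all tested probes were. Leaving out Chfr and Clasp2, the calls were 7 of 46 with siRNA1 and 5 of 46 with siRNA2. Between the siRNAs, 10 genes were called (3 higher and 7 lower with siRNA1, 20.8%), against 23.5% of all tested probes. In this fit, which has no term for the slide, these shares lie below the background in all 3 comparisons, and apart from Chfr, Clasp2 and Wee1 the called difference furthest from 0 was that of Rbl1, -0.73 with siRNA2. The median log2 difference over the 48 genes was 0.03 with siRNA1, 0.08 with siRNA2 and -0.07 between the siRNAs, beside -0.05, -0.01 and -0.04 over all tested probes. With siRNA1, the arrays of 7 genes lay wholly above and of 7 wholly below the control arrays, where 12.7% and 16.4% of all tested probes did. With siRNA2 these counts were 12 and 3, where 12.4% and 15.7% did. Between the siRNAs, siRNA1 arrays lay wholly above siRNA2 arrays for 7 genes and wholly below for 10, where 14.9% and 16.4% did. With the slide as a block, the calls became 17, 13 and 18 of 48, and those of all tested probes 35.8%, 25.5% and 32.1%. The share of listed genes was then slightly below the background with siRNA1, slightly above it with siRNA2 and above it between the siRNAs. Whether these shares differ from the background was not tested, and the counts against control include Chfr and Clasp2. With siRNA1 the block added Rb1, Rbl2, E2f2, Myc, Ccnb1 and Plk1 as higher and Ccnd3 and Cdc20 as lower. With siRNA2 it added Rb1, Cdt1 and Cenpe as higher and Wee1, Mad2l1 and Kif20a as lower. Between the siRNAs it added Cdkn2b, Rbl2 and Cdc25c as higher with siRNA1, and Ccnd3, Ccne1, E2f1, Mcm6 and Cdc20 as lower. No call of a brightest probe was lost with the block, and calls named below are those without it unless the block is named. Under normexp, limma called none of the 48 in any comparison. With the highest local backgrounds replaced it called 13, 10 and 13, where 30.6%, 15.5% and 22.6% of all tested probes were called. The share of listed genes was again above the background in the latter 2 comparisons, also without a test of the difference. Both comparisons with control use the same 4 control arrays, and the comparison between siRNAs uses the same siRNA arrays, so that the 3 are not independent. In whole cultures, fewer cells in a phase and less RNA per cell cannot be told apart.

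**Figure D1:**
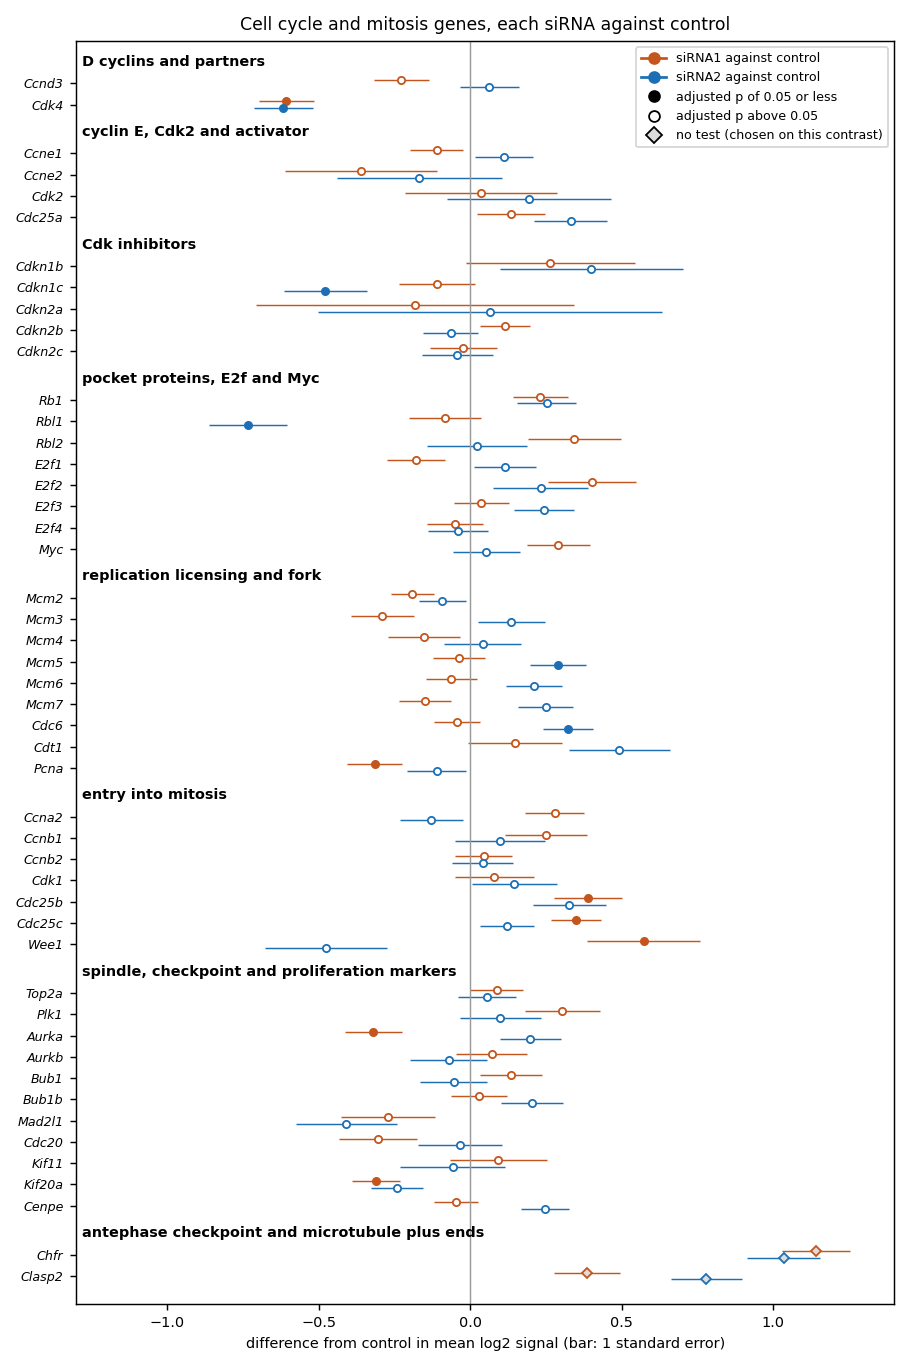
Log2 difference from control (horizontal axis, with 1 standard error) of the 48 tested genes, ordered by class, for siRNA1 and siRNA2. Filled circles have an adjusted p of 0.05 or less, open circles do not, and the diamonds of Chfr and Clasp2 carry no test. Cdk4 lies near -0.61 with both siRNAs, and Chfr lies furthest to the right.

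By brightest probes, Chfr was the highest of the listed genes with both siRNAs. Clasp2, a protein that tracks the growing plus ends of microtubules and anchors them at kinetochores, was placed in the same class here. It was chosen by the same earlier results, so its higher values with both siRNAs are a description and add no evidence for Chfr. The brighter Chfr probe measured 114%, 99.1%, 97.3% and 91.3% on control arrays 1 to 4, 223%, 192%, 249% and 222% on siRNA1 arrays 1 to 4, and 238%, 194% and 187% on siRNA2 arrays 1 to 3. Every siRNA array lay above every control array, the lowest at 187% and the highest control at 114%. The log2 differences from control, which the choice of Chfr used, were 1.14 ± 0.11 (2.21-fold) with siRNA1 and 1.03 ± 0.12 (2.05-fold) with siRNA2. By brightest probes it was the only listed gene past 2-fold in either comparison, where 1.19% and 0.742% of all tested probes were called higher at 2-fold, and 1.81% and 1.51% lower. The other Chfr probe read 178%, 208%, 161% and 176% in siRNA1-transfected MLTCs and 152%, 232% and 215% in siRNA2-transfected MLTCs, also without overlap with control, and its differences of 0.85 and 0.98 stayed under 2-fold. Between the siRNAs, which the choice did not use, the brighter probe differed by 0.11 ± 0.12 (adjusted p = 0.579), with a 95% interval of -0.16 to 0.37, and the other probe by -0.13.

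Clasp2, by its brighter probe, measured 109%, 105%, 95.8% and 90.6% on control arrays 1 to 4, 138%, 121%, 141% and 124% on siRNA1 arrays 1 to 4, and 198%, 176% and 145% on siRNA2 arrays 1 to 3. The siRNA1 arrays lay above all control arrays and the siRNA2 arrays above all siRNA1 arrays. The log2 differences from control were 0.39 ± 0.11 and 0.78 ± 0.12. Its other probe was not well above background on any control array and was well above it on every siRNA array, at least 3.05-fold higher in siRNA1-transfected MLTCs and, in siRNA2-transfected MLTCs, at least 4.46-fold higher, against the higher of each control array's lowest signal above background and the probe's own. This probe was named only from the authors' table of selected probes, and only the siRNA groups made it bright enough to test. Its difference from control is therefore a description and no separate evidence for Clasp2. The difference between the siRNAs, which the choice did not use, was -0.39 ± 0.12 by the brighter probe (adjusted p = 0.0328) and -0.55 ± 0.12 by the other (adjusted p = 0.00741). For the brighter probe this call was lost when siRNA1 array 2 or 4 or siRNA2 array 1 or 2 was left out, with an adjusted p of up to 0.116. It was also lost on scaling to the median, without the filter on dim probes and in separate fits of the groups compared. The t-test of the study's methods, with Benjamini-Hochberg adjustment, did not call it either.

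**Figure D2:**
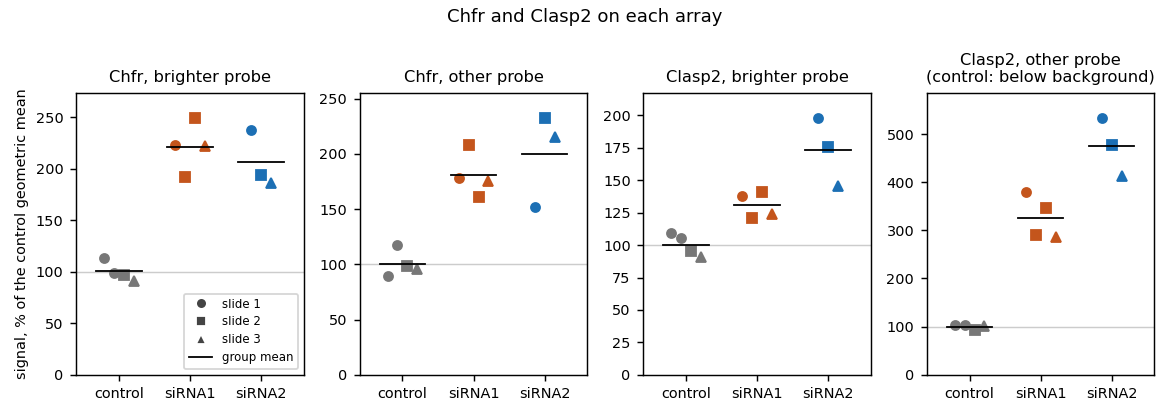
Signal of each probe of Chfr and Clasp2 on each array, as a percentage of the control geometric mean (vertical axis from 0), by group; the marker shape gives the slide and the line the group mean. In each panel all siRNA arrays lie above all control arrays, and in both Clasp2 panels the siRNA2 arrays lie above the siRNA1 arrays.

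Among the genes of the G1 phase, Cdk4, the kinase that binds D cyclins and phosphorylates the pocket proteins, fell with both siRNAs. Cdk4 measured 97.1%, 89.9%, 109% and 105% on control arrays 1 to 4, 64.3%, 68.1%, 60.8% and 70.0% on siRNA1 arrays 1 to 4, and 63.8%, 61.2% and 71.1% on siRNA2 arrays 1 to 3. All 7 siRNA arrays lay between 60.8% and 71.1%, below the lowest control array at 89.9%. The log2 difference was -0.61 ± 0.09 with siRNA1 (adjusted p = 0.000574) and -0.62 ± 0.10 with siRNA2 (adjusted p = 0.00124), and each call was kept in all 11 fits that left out 1 array. The exact two-sided permutation p was 0.0286 in both comparisons, the smallest that 4 arrays against 4 or 3 allow. Between the siRNAs Cdk4 differed by 0.01 ± 0.10, with a 95% interval of -0.20 to 0.22.

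Cyclin D3 (Ccnd3), a partner of Cdk4, measured 100.3%, 94.1%, 96.4% and 110.0% on the control arrays, 86.5%, 87.7%, 76.5% and 91.8% with siRNA1 and 96.3%, 103% and 115% with siRNA2. Without overlap, siRNA1 arrays were below both other groups, and the difference from control was -0.23 ± 0.09 (adjusted p = 0.0873, and 0.0344 with the slide as a block). None of the 4 genes of cyclin E, Cdk2 and its activator Cdc25a was called in any comparison without the slide block. Among them, cyclin E1 (Ccne1), which drives the start of S phase with Cdk2, ranged from 85.5% to 116% over all arrays and differed from control by -0.11 and 0.11.

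Of the 5 Cdk inhibitors, Cdkn1c (p57), which blocks Cdk2 and Cdk4 complexes, was the only one called without the slide block. It measured 79.8%, 104%, 111% and 108% on control arrays 1 to 4, 92.8%, 107%, 87.4% and 85.1% on siRNA1 arrays 1 to 4, and 64.5%, 69.9% and 82.0% on siRNA2 arrays 1 to 3. The siRNA2 arrays overlapped the lowest control array, at 79.8%, and lay below the others. The difference with siRNA2 was -0.48 ± 0.14 (adjusted p = 0.0324), a call that was lost when control array 2, 3 or 4 or siRNA2 array 1 or 2 was left out, with an adjusted p of up to 0.114. Cdkn2c (p18), an inhibitor of Cdk4 and Cdk6, differed from control by -0.02 ± 0.11 and -0.04 ± 0.12, and both signs turned under quantile normalization. Cdkn2a, which encodes the p16 inhibitor of Cdk4 and the p53 activator p19Arf, did not follow the groups. It stood at 259.7% on control array 1, 196% on siRNA1 array 1 and 214% on siRNA2 array 1, and between 60.4% and 81.3% on the other 8. These 3 arrays shared a slide, but control array 2 lay on it too, at 68.4%. The difference of Cdkn2a from control had wide 95% intervals, -1.34 to 0.97 with siRNA1 and -1.18 to 1.32 with siRNA2.

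Among the pocket proteins and E2f factors, Rbl1 (p107), which binds repressive E2f factors and is itself an E2f target, fell with siRNA2. Rbl1 measured 113%, 94.7%, 89.0% and 105% on control arrays 1 to 4, 109%, 86.0%, 103% and 82.6% on siRNA1 arrays 1 to 4, and 67.9%, 56.5% and 56.8% on siRNA2 arrays 1 to 3. The siRNA2 arrays lay below every other array, while siRNA1 and control arrays overlapped. The difference was -0.73 ± 0.13 with siRNA2 (adjusted p = 0.00238) and -0.08 ± 0.12 with siRNA1 (adjusted p = 0.652). Tested directly, siRNA1 exceeded siRNA2 by 0.65 ± 0.13 (adjusted p = 0.00371, exact permutation p = 0.0286), and both calls of Rbl1 were kept in all 11 fits that left out 1 array. Rb1, the retinoblastoma protein, was not called and lay above all control arrays with both siRNAs, by 0.23 (adjusted p = 0.0819) and 0.25 (adjusted p = 0.101), and with the slide as a block the adjusted p was 0.0238 and 0.0345. Myc, a transcription factor that drives growth and entry into the cycle, stood at 0.29 ± 0.10 with siRNA1 (adjusted p = 0.0571) and 0.05 ± 0.11 with siRNA2 (adjusted p = 0.814), and the former had an adjusted p of 0.0465 with the slide as a block.

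The second probes of E2f1 and E2f3, activating E2f factors of the S phase genes, were called where their brightest probes were not. With siRNA1, E2f1 stood at -0.35 ± 0.08 from siRNA2 on its second probe (adjusted p = 0.00841) and at -0.29 ± 0.10 on its brightest (adjusted p = 0.062). E2f3 was higher with siRNA2 than control by 0.47 ± 0.11 on its second probe (adjusted p = 0.0153) and by 0.24 ± 0.10 on its brightest (adjusted p = 0.119). In both genes the probes had the same sign and differed in whether they passed the threshold.

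**Figure D3:**
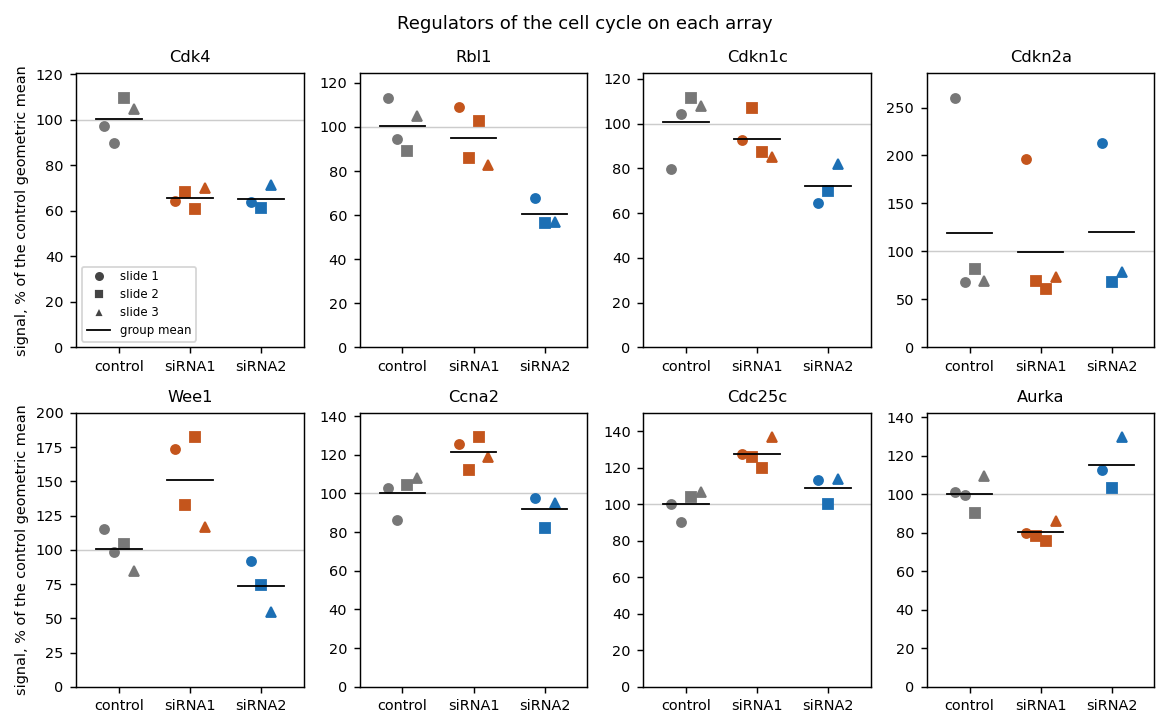
Signal of 8 regulators on each array, as a percentage of the control geometric mean (vertical axis from 0), by group; the marker shape gives the slide and the line the group mean. Cdk4 is lower with both siRNAs, Rbl1 is lower with siRNA2, Wee1 and Aurka lie on opposite sides of each other between the siRNAs, and Cdkn2a is high on 1 array of each group.

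All 9 replication licensing and fork genes had a lower mean with siRNA1 than with siRNA2, where 44.8% of all tested probes lay above 0. For 6 of them the siRNA1 arrays lay wholly below the siRNA2 arrays, as they did for 16.4% of all tested probes. Of the 9, 4 were called, where 11.8% of all tested probes were called lower: Mcm3, Mcm5 and Mcm7, subunits of the helicase that opens the DNA, and Cdc6, which loads it at origins. Their median log2 difference was -0.33, beside -0.04 over all tested probes. Against control, 8 of the 9 were below 0 with siRNA1 and 7 of the 9 above 0 with siRNA2, where 43.9% and 48.7% of all tested probes lay above 0. Calls against control were fewer, with Pcna lower in siRNA1-transfected MLTCs and Mcm5 and Cdc6 higher in siRNA2-transfected MLTCs, beside 15.2% of all tested probes called lower with siRNA1 and 7.7% called higher with siRNA2. The promoters of Mcm3, Mcm5, Mcm7 and Cdc6, printed above, all hold an E2F word, as do those of Mcm6 and Cdt1, which were not called between the siRNAs, and of Rbl1, which was called higher with siRNA1.

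Mcm7 measured 108%, 88.4%, 97.1% and 108% on control arrays 1 to 4, 88.4%, 91.3%, 88.8% and 92.3% on siRNA1 arrays 1 to 4, and 113%, 116% and 128% on siRNA2 arrays 1 to 3. The siRNA1 arrays lay within 88.4% to 92.3% and the siRNA2 arrays at 113% or more, and the control arrays overlapped the former and lay below the latter. The difference between siRNAs was -0.40 ± 0.09 (adjusted p = 0.00914). Cdc6 measured 104%, 94.4%, 98.8% and 103% on control arrays 1 to 4, 93.9%, 92.7%, 103% and 99.1% on siRNA1 arrays 1 to 4, and 135%, 124% and 117% on siRNA2 arrays 1 to 3. Its siRNA2 arrays lay above all the others, by 0.32 ± 0.08 over control (adjusted p = 0.0187) and with siRNA1 at -0.37 ± 0.08 from siRNA2 (adjusted p = 0.00768). The second Cdc6 probe had the same sign between siRNAs and was not called (-0.16, adjusted p = 0.351). The call of Cdc6 over control was lost without siRNA2 array 1 or 2, with an adjusted p of up to 0.0731. It was also lost on scaling to the median and in separate fits of the groups compared.

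Mcm3 measured 95.2%, 100.1%, 99.9% and 105% on control arrays 1 to 4, 77.4%, 97.2%, 68.5% and 86.8% on siRNA1 arrays 1 to 4, and 106%, 113% and 111% on siRNA2 arrays 1 to 3. Its siRNA1 arrays were scattered below siRNA2 without overlap, and the difference was -0.43 ± 0.11 (adjusted p = 0.0177). Mcm5 measured 108%, 91.3%, 95.9% and 105% on control arrays 1 to 4, 96.3%, 103%, 90.7% and 100.2% on siRNA1 arrays 1 to 4, and 119.6%, 116% and 131% on siRNA2 arrays 1 to 3. Here the siRNA2 arrays stood above both other groups, by 0.29 ± 0.09 over control (adjusted p = 0.0487) and with siRNA1 at -0.33 ± 0.09 from siRNA2 (adjusted p = 0.0237). Mcm3 lost its call between siRNAs without siRNA2 array 2 or 3 (adjusted p up to 0.0650), and Mcm5 without siRNA1 array 1 or 3 or siRNA2 array 3 (adjusted p up to 0.0990). Over control, Mcm5 kept its call in 1 of the 11 fits that left out an array, with adjusted p between 0.0469 and 0.163 over these fits.

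Pcna, the sliding clamp of the replication fork, fell with siRNA1. It measured 110.1%, 95.8%, 88.7% and 107% on control arrays 1 to 4, 86.9%, 82.6%, 73.5% and 79.2% on siRNA1 arrays 1 to 4, and 94.5%, 88.8% and 94.8% on siRNA2 arrays 1 to 3, with no siRNA1 array above the lowest control array. The difference was -0.31 ± 0.09 (adjusted p = 0.0243), and it was lost without control array 1 or 4 or siRNA1 array 3 or 4 (adjusted p up to 0.0771), under quantile normalization and on scaling to the median. Mcm6, another helicase subunit, was not called and with siRNA1 stood at -0.27 from siRNA2 (adjusted p = 0.0524, and 0.0442 with the slide as a block), with no overlap of the groups. Of the remaining genes, Mcm2, Mcm4 and Cdt1 differed between the siRNAs by -0.10, -0.19 and -0.34, and Cdt1, the other loader of the helicase, lay above all control arrays with siRNA2 (0.49 ± 0.17, adjusted p = 0.0654, and 0.0291 with the slide as a block).

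**Figure D4:**
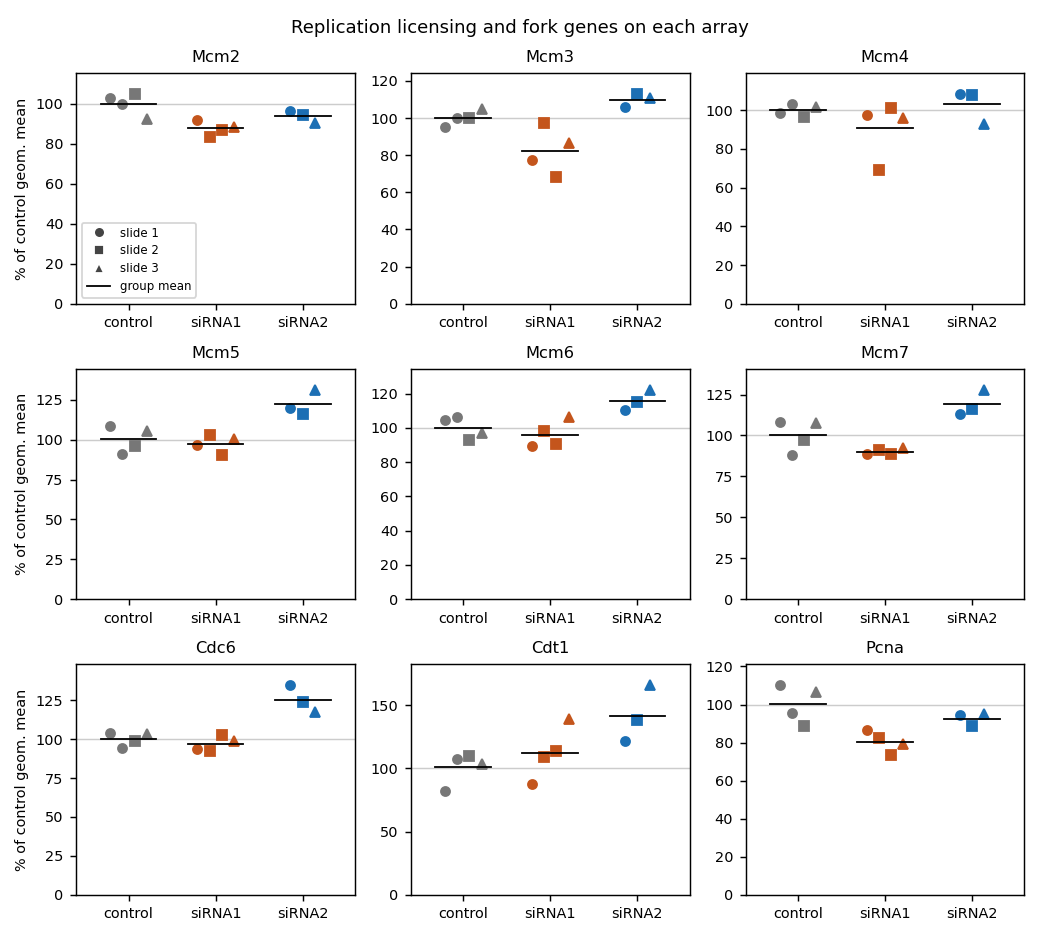
Signal of the 9 replication licensing and fork genes on each array, as a percentage of the control geometric mean (vertical axis from 0), by group; the marker shape gives the slide and the line the group mean. In all 9 panels the mean of the siRNA1 arrays is below that of the siRNA2 arrays. In 6 of them no siRNA1 array reaches the lowest siRNA2 array, as for 16.4% of all tested probes.

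A wider list of replication genes, drawn up from textbook complexes and holding none of the 9 above, was mostly lower with siRNA1 as well. It covers the origin recognition complex, the GINS complex, the polymerases, the clamp loader and nucleotide synthesis, and 28 of its 29 genes were tested. Of these 28, 26 were lower with siRNA1 than with siRNA2 and 11 were called lower, with a median log2 difference of -0.33, where 11.8% of all tested probes were called lower, 44.8% lay above 0 and the median was -0.04. The 11 include the clamp loader subunits Rfc1 to Rfc5, and the lowest value was that of Mcm10, an initiation factor, at -0.79 ± 0.10 (adjusted p = 0.000278). Mcm10 measured 95.03%, 96.4%, 98.7% and 111% on control arrays 1 to 4, 68.4%, 82.2%, 74.2% and 86.2% on siRNA1 arrays 1 to 4, and 126%, 132% and 146% on siRNA2 arrays 1 to 3, so that the siRNA1 arrays lay below and the siRNA2 arrays above all control arrays. Only Rrm2 and Orc5 of the 28 lay above 0. Rrm2, the small subunit of ribonucleotide reductase that supplies DNA precursors, was called higher with siRNA1 than siRNA2 by 0.77 ± 0.11 (adjusted p = 0.000394), and Orc5, a subunit of the origin recognition complex, by 0.31 ± 0.11 without a call (adjusted p = 0.0676). Mcm10, Rrm2, Orc5 and the Rfc genes were chosen for mention after their values were seen.

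Against control, the wider replication list held 9 genes called lower and 2 called higher with siRNA1, and 5 called higher and 1 called lower with siRNA2. Of all tested probes, 15.2% were called lower and 11.8% higher with siRNA1, and 7.7% higher and 10.7% lower with siRNA2. The counts of 9 of 9 and 26 of 28 genes lower with siRNA1 than siRNA2 stayed the same under quantile normalization, scaling to the median, the normexp background correction and the slide as a block. Without siRNA2 array 1 the second count was 25 of 28. The number called among the 9 fell to 1 on scaling to the median and to 0 with the normexp background correction, and was 2 without siRNA2 array 3.

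Among the genes of entry into mitosis, all 7 lay above control with siRNA1 and 3 were called higher: the Cdk1-activating phosphatases Cdc25b and Cdc25c and the Cdk1-inhibiting kinase Wee1. The share of all tested probes called higher with siRNA1 was 11.8%. The sign of all 7 did not hold under the normexp background correction, where 3 lay above 0. With siRNA2, 5 of the 7 lay above 0 and none was called by the brightest probe.

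Cdc25c measured 100.1%, 90.4%, 104% and 106% on control arrays 1 to 4, 128%, 126%, 119.9% and 137% on siRNA1 arrays 1 to 4, and 113%, 100.2% and 114% on siRNA2 arrays 1 to 3. All siRNA1 arrays exceeded all control and siRNA2 arrays. The difference from control was 0.35 ± 0.08 with siRNA1 (adjusted p = 0.00983) and 0.12 ± 0.09 with siRNA2 (adjusted p = 0.425), and the direct difference was 0.23 ± 0.09 (adjusted p = 0.0937). The second Cdc25c probe was called in both the first and the last of these, at 0.25 ± 0.08 (adjusted p = 0.029) and 0.33 ± 0.08 (adjusted p = 0.0126). With siRNA2 against control that probe had the opposite sign, -0.08, and was not called (adjusted p = 0.593).

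Cdc25b measured 86.3%, 108%, 107% and 100.5% on control arrays 1 to 4, 110.5%, 129%, 134% and 154% on siRNA1 arrays 1 to 4, and 118%, 125% and 134% on siRNA2 arrays 1 to 3. The arrays of both siRNAs lay above all control arrays, and the differences were 0.39 ± 0.11 with siRNA1 (adjusted p = 0.025) and 0.33 ± 0.12 with siRNA2 (adjusted p = 0.0884). The siRNA1 call was lost without control array 1 or 4 or siRNA1 array 3 or 4, with an adjusted p of up to 0.0691. A second probe was called with both siRNAs, at 0.40 ± 0.08 (adjusted p = 0.00508) and 0.35 ± 0.09 (adjusted p = 0.0203). On another probe the siRNA1 difference was 0.71 ± 0.12 (adjusted p = 0.00113), and there siRNA1 also exceeded siRNA2 by 0.41 ± 0.13 (adjusted p = 0.0375).

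Wee1 was the only one of the 48 genes called at 2-fold between the siRNAs, where 1.91% of all tested probes were called higher and 1.45% lower at 2-fold. It measured 115%, 98.7%, 104% and 84.5% on control arrays 1 to 4, 174%, 133%, 182% and 116% on siRNA1 arrays 1 to 4, and 92.1%, 74.3% and 54.4% on siRNA2 arrays 1 to 3. The siRNA1 arrays lay above all control arrays, the lowest at 116% against a highest control of 115%, and the siRNA2 arrays lay below all siRNA1 arrays and overlapped control. With siRNA1 it rose by 0.57 ± 0.19 (adjusted p = 0.0417), a call kept in 5 of the 11 fits that left out an array and lost without control array 2, 3 or 4, siRNA1 array 1 or 3, or siRNA2 array 2 (adjusted p up to 0.120). With siRNA2 the value was -0.48 ± 0.20 (adjusted p = 0.135, and 0.0386 with the slide as a block). Tested directly, siRNA1 exceeded siRNA2 by 1.05 ± 0.20, or 2.07-fold (adjusted p = 0.00316, exact permutation p = 0.0286), and this call was kept in all 11 fits.

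Cyclin A2 (Ccna2), which binds Cdk2 in S phase and Cdk1 before mitosis, measured 103%, 86.2%, 104% and 108% on control arrays 1 to 4, 126%, 112%, 129% and 119% on siRNA1 arrays 1 to 4, and 97.8%, 82.2% and 95.1% on siRNA2 arrays 1 to 3. It was higher on all siRNA1 arrays than on any other array. The difference was 0.28 ± 0.10 from control (adjusted p = 0.0535) and 0.41 ± 0.10 from siRNA2 (adjusted p = 0.0155), of which the latter was lost without siRNA2 array 2 (adjusted p = 0.0781). Cyclin B2 (Ccnb2), a partner of Cdk1, differed from control by 0.04 ± 0.09 and 0.04 ± 0.10, with 95% intervals of -0.16 to 0.25 and -0.18 to 0.26.

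Among the 11 tested spindle, checkpoint and proliferation genes, Aurka and Kif20a fell with siRNA1, none was called with siRNA2, and Aurka and Cenpe differed between the siRNAs. Of all tested probes, 15.2% were called lower with siRNA1, 18.4% were called with siRNA2 and 11.8% were called lower with siRNA1 than with siRNA2. No test set the class apart from these shares. Aurka, the kinase that matures centrosomes and builds the spindle, measured 101%, 99.5%, 90.5% and 109.5% on control arrays 1 to 4, 80.2%, 78.5%, 75.9% and 86.3% on siRNA1 arrays 1 to 4, and 113%, 103% and 129.6% on siRNA2 arrays 1 to 3. The siRNA1 arrays lay below all others, and the siRNA2 arrays overlapped control. The difference was -0.32 ± 0.09 with siRNA1 (adjusted p = 0.0264) and 0.20 ± 0.10 with siRNA2 (adjusted p = 0.219). Tested directly, siRNA1 was at -0.52 ± 0.10 from siRNA2 (adjusted p = 0.00347, exact permutation p = 0.0286), kept in all 11 fits that left out an array. The call against control was lost without control array 1 or 4 or siRNA1 array 1, 2 or 3 (adjusted p up to 0.0772), under quantile normalization and on scaling to the median.

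Kif20a, a kinesin of the central spindle needed for cytokinesis, measured 91.4%, 107%, 97.5% and 104% on control arrays 1 to 4, 76.3%, 82.3%, 82.8% and 81.0% on siRNA1 arrays 1 to 4, and 78.9%, 88.6% and 86.6% on siRNA2 arrays 1 to 3. Arrays of both siRNAs lay below all control arrays. The difference was -0.31 ± 0.08 with siRNA1 (adjusted p = 0.0134), kept in all 11 fits that left out an array and lost on scaling to the median, and -0.24 ± 0.09 with siRNA2 (adjusted p = 0.0765, and 0.0396 with the slide as a block). Cenpe, a motor that carries chromosomes to the spindle equator, read 96.4%, 93.8%, 92.0% and 105% with siRNA1 and 120.4%, 115% and 120.0% with siRNA2, without overlap. The difference between them was -0.29 ± 0.08 (adjusted p = 0.021), lost without siRNA1 array 3 or any 1 of the siRNA2 arrays (adjusted p up to 0.0664), and not called on the other Cenpe probes.

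Cdc20, which activates the anaphase-promoting complex, read 78.7%, 82.4%, 73.2% and 90.7% with siRNA1, below all control arrays, the lowest of which stood at 92.3%. Its difference was -0.30 ± 0.13 (adjusted p = 0.106, and 0.0118 with the slide as a block). The proliferation marker Top2a, the topoisomerase that untangles sister DNA, differed from control by 0.09 ± 0.09 with siRNA1 and 0.06 ± 0.10 with siRNA2, with 95% intervals of -0.11 to 0.28 and -0.15 to 0.27. For the checkpoint genes Bub1, Bub1b and Mad2l1 no difference was called, and their values ran from -0.41 to 0.20 over both siRNAs. With the slide as a block, Mad2l1 was called lower with siRNA2 (adjusted p = 0.0278).

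The other tested members were called in no comparison by any probe without the slide block. Among them, with siRNA1 and siRNA2 against control, the Cdk inhibitor Cdkn1b (p27) stood at 0.27 and 0.40, the pocket protein Rbl2 (p130) at 0.34 and 0.02, and the activating factor E2f2 at 0.40 and 0.23. The mitotic kinase Cdk1 stood at 0.08 and 0.15, its partner cyclin B1 (Ccnb1) at 0.25 and 0.10, and Plk1, a kinase of centrosomes and mitotic entry, at 0.30 and 0.10. With the slide as a block, the adjusted p with siRNA1 was 0.00654 for Rbl2, 0.0232 for E2f2, 0.00405 for Ccnb1 and 0.0271 for Plk1. The values given here were smaller in size than the called difference of Cdk4.

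**Figure D5:**
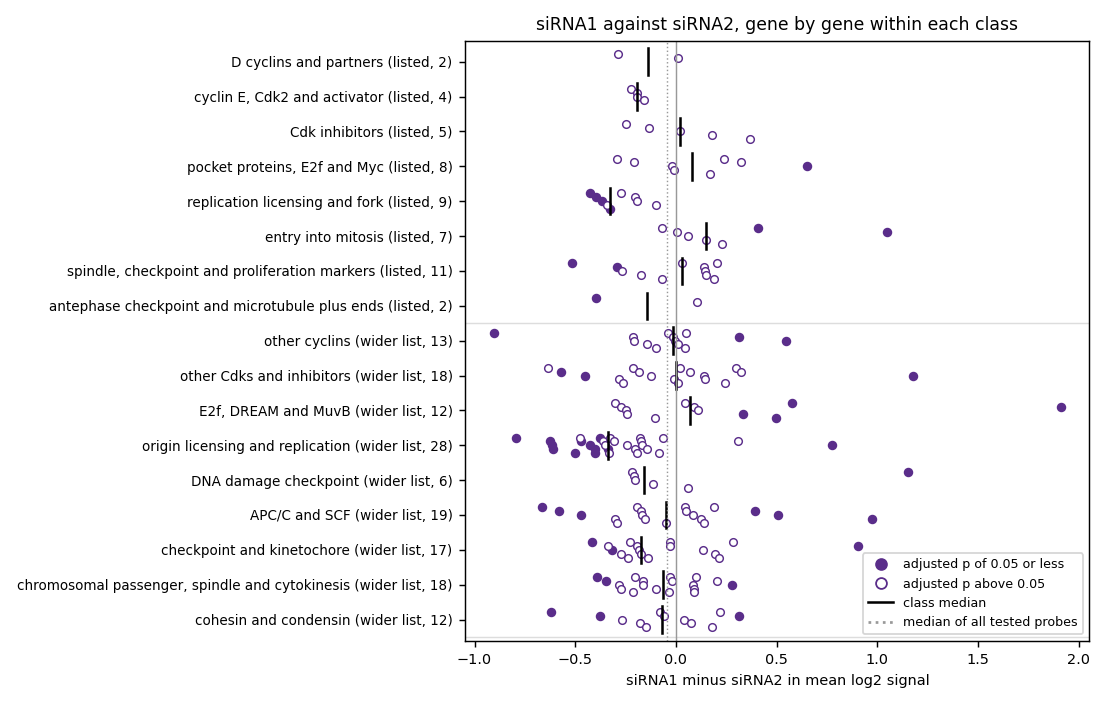
Difference between siRNA1 and siRNA2 in mean log2 signal (horizontal axis) for each tested gene of the list and of the wider list, by class, with the number of genes in brackets; filled points have an adjusted p of 0.05 or less and the black bar is the class median. The replication classes of both lists have a median of -0.33, left of the dotted line at -0.04 that marks all tested probes.

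Over the whole wider cell cycle list, 143 of 156 genes were tested. With siRNA1, 19 were called higher and 27 lower, with siRNA2 17 higher and 10 lower, and between the siRNAs 15 higher and 23 lower with siRNA1. The shares of all tested probes called higher and lower were 11.8% and 15.2% with siRNA1, 7.7% and 10.7% with siRNA2 and 11.7% and 11.8% between the siRNAs. Against control, 3 of its genes passed 2-fold with a call, E2f5, Ccng1 and Hus1, and each differed between the siRNAs. Of these, Ccng1 and Hus1 passed 2-fold with siRNA1 and E2f5 with siRNA2. E2f5, a repressive E2f that works with Rbl2, measured 118%, 95.7%, 88.8% and 99.9% on control arrays 1 to 4, 229%, 150.0%, 175% and 172% on siRNA1 arrays 1 to 4, and 55.4%, 43.2% and 45.2% on siRNA2 arrays 1 to 3. It rose with siRNA1 by 0.84 ± 0.14 (adjusted p = 0.00128) and fell with siRNA2 (-1.07 ± 0.15, adjusted p = 0.000657), with no overlap among the 3 groups and a direct difference of 1.91 ± 0.15 (adjusted p = 9.91e-06).

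Ccng1, an atypical cyclin induced by p53, measured 118%, 97.0%, 97.3% and 89.7% on control arrays 1 to 4, 58.4%, 40.9%, 50.2% and 39.6% on siRNA1 arrays 1 to 4, and 107%, 86.6% and 71.9% on siRNA2 arrays 1 to 3. The siRNA1 arrays lay below all others (-1.10 ± 0.16, adjusted p = 0.000441), whereas the value with siRNA2 was -0.20 ± 0.17 (adjusted p = 0.509), and the direct difference was -0.90 ± 0.17 (adjusted p = 0.00271). A second Ccng1 probe differed from control by -0.22 with siRNA1 and was not called. Hus1, a subunit of the clamp that signals DNA damage, measured 113%, 90.8%, 92.5% and 105% on control arrays 1 to 4, 281%, 209%, 233% and 209% on siRNA1 arrays 1 to 4, and 117%, 94.6% and 102% on siRNA2 arrays 1 to 3. It rose with siRNA1 (1.21 ± 0.12, adjusted p = 3.96e-05) and stood at 0.06 ± 0.13 with siRNA2, a direct difference of 1.15 ± 0.13 (adjusted p = 0.000102), and the other 2 Hus1 probes had the same call with siRNA1.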

How the data were processed

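Total RNA was converted into Cy3-labelled cRNA, which was hybridised on one-colour Agilent whole mouse genome arrays. The deposited intensity values are processed signals of Agilent Feature Extraction 9.5.1.1 per the file headers, background-subtracted and not normalized between arrays. From a table of pooled means of probes that the authors selected by their own comparison, only gene names were taken, for probes that no RefSeq accession named. Here signals were scaled to the 75th percentile of each array and taken to log2, outlier-marked spots were left out and spots of a probe averaged. Of 41174 probes, 24375 were named through RefSeq accessions, 17 from the authors' table and 16782 were unnamed. The 75th percentile was 469.7 to 581.7 in control, 600.7 to 773.8 with siRNA1 and 488.4 to 578.8 with siRNA2. The 24248 probes that, in at least 1 group, were well above background throughout were compared with limma 3.58.1 in R 4.3.3, in 1 fit over 11 arrays, with Benjamini-Hochberg adjustment. The fit was tested on simulated data.

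Genes were named if called by their brightest probe, if that probe was the brightest of their class, if Chfr or Clasp2, or, in the wider list, if called at 2-fold with either siRNA. Other genes, such as Rb1, Myc, Cdt1, Mcm10 and the markers with values, were chosen for mention after their values were seen. The members, gene lists and tests were chosen with earlier results of these data known. Alternatives covered background correction, scaling, filters, slide and replicate blocks, the methods' t-test and leaving out each array.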

Additional observations from a re-analysis of the deposited data

Results flagged for a closer look

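Single arrays stood far from the others of their group in 5 of 96 groups of 4 arrays, where chance flags about 1 in 20. Cdkn2a was at 259.7% of control on control array 1, against 68.4% to 81.3% on the other control arrays, and at 196% on siRNA1 array 1 against 60.4% to 73.3%. E2f1 was at 103% on siRNA1 array 2 against 82.4% to 85.6%, Mcm4 at 69.2% on siRNA1 array 2 against 95.8% to 101%, and Bub1 at 107% on control array 2 against 97.1% to 98.3%.

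The effect of the siRNAs differed between siRNA1 and siRNA2, by the direct test in limma at an adjusted p of 0.05 or less, for 10 listed genes. Of all tested probes, 23.5% were called in this test. In the wider list, 15 of 143 tested genes were called higher and 23 lower with siRNA1. Only the 3 that had also passed 2-fold against control are named here. The log2 difference, siRNA1 minus siRNA2, was above 0 for Rbl1 (0.65), Ccna2 (0.41) and Wee1 (1.05), and below 0 for Mcm3 (-0.43), Mcm5 (-0.33), Mcm7 (-0.40), Cdc6 (-0.37), Aurka (-0.52), Cenpe (-0.29) and Clasp2 (-0.39). For these 3 genes of the wider list it was -0.90 for Ccng1, 1.91 for E2f5 and 1.15 for Hus1.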

How the results depend on the processing

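The called listed genes were 9 with siRNA1, 7 with siRNA2 and 10 between the siRNAs, beside 27%, 18.4% and 23.5% of all tested probes. They became 17, 13 and 18 with the slide as a block (35.8%, 25.5% and 32.1% of all tested probes). With a replicate block they were 17, 14 and 17 (34.6%, 24.1% and 30.9%). By the methods' t-test without adjustment they were 18 each (36.1%, 27.6% and 31.4%), and under normexp 0 each (1.57%, 0.507% and 0.334%). At 2-fold they were 1 each, namely Wee1 between the siRNAs and Chfr in both comparisons with control. As Chfr was chosen on the latter, its count cannot be set against the 2-fold shares given above. The counts were 13, 10 and 13 (30.6%, 15.5% and 22.6% of all tested probes) under normexp once the highest local backgrounds of each array were set to its median, a setting added after seeing the data. Single counts moved past 1.5 times on quantile normalization (siRNA2, 11), scaling to the median (between the siRNAs, 5), no filter on dim probes (siRNA1, 4), separate fits (siRNA2, 4) and trend and robust options (siRNA1, 14). The shares of all tested probes called there were, in this order, 18.7%, 18.5%, 13.6%, 15.2% and 28.3%. Leaving out 1 array gave 4 to 9, 4 to 7 and 6 to 11 calls, with 4 for siRNA1 without control array 4 or siRNA1 array 3, and 4 for siRNA2 and 6 between the siRNAs without siRNA2 array 2. Over these fits, 20.4% to 27.1%, 12.2% to 18.1% and 17.3% to 23.1% of all tested probes were called. The median log2 difference was -0.16 (siRNA1) and -0.026 (siRNA2) under normexp, 0.075 (siRNA1) and -0.029 (between the siRNAs) on scaling to the median, and -0.012 to 0.0399, 0.071 to 0.11 and -0.069 to -0.027 on leaving out 1 array. Arrays with the same replicate number deviated together more (median r 0.30 over 10 pairs, lowest -0.18) than those with different numbers (median r -0.10 over 30 pairs). Most pairs with the same number shared a slide, and the 4 on different slides had a median r of 0.16. Within a slide, pairs with the same number had r of 0.50, 0.53, 0.076, 0.44, 0.52 and 0.30. Pairs with different numbers within a slide had r of 0.12, 0.034, 0.20, 0.17, 0.36, -0.072 and 0.42. Whether the number adds to the slide was not tested. The labels do not say that the numbers pair the arrays, so the replicate block was kept as an alternative.

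Signs turned most often under normexp. With siRNA1 the values became 0.71 for Cdkn1c, -0.056 for Ccna2, -0.33 for Ccnb2 and 0.65 for Mamld1. With siRNA2 they became -0.14 for Ccnd3, -0.070 for Ccne1, 0.41 for Cdkn1c, -0.056 for Mcm3, -0.21 for Ccnb2, 0.25 for Wee1, -0.027 for Aurka and 0.44 for Mamld1. Between the siRNAs they became -0.10 for Cdk4, -0.093 for Cdkn2c, -0.12 for Ccnb2, -0.076 for Cdc25b, 0.15 and 0.13 for the second probes of Chfr and Clasp2, and 0.21 for Mamld1. With the highest backgrounds replaced, Cdkn2c (0.038) and Mcm6 (0.021) turned with siRNA1. Quantile normalization turned Cdkn2c (0.076), Mcm5 (0.055), Mcm6 (0.028) and Cenpe (0.063) with siRNA1, and Cdkn2c (0.00989) and Cdc20 (0.0077) with siRNA2. Scaling to the median turned Cdkn2c (0.021) and Mcm5 (0.0059) with siRNA1, the slide as a block Cdkn2c (0.0087) with siRNA1, the replicate block Cdc20 (0.037) with siRNA2 and Cdk4 (-0.016) and Ccnb2 (-0.039) between the siRNAs, and the mean over probes Chfr (-0.011) between the siRNAs. On leaving out 1 array, signs turned for Cdkn2c (-0.089 to 0.054) and Mcm5 (-0.081 to 0.0023) with siRNA1, for Cdkn2c (-0.11 to 0.012), Cdc20 (-0.19 to 0.053), Hus1 (-0.023 to 0.13), Ccnd3 (-0.0037 to 0.12) and Ccnb2 (-0.052 to 0.0998) with siRNA2, and for Cdkn2c (-0.036 to 0.095), Cdk4 (-0.036 to 0.072), Ccnb2 (-0.055 to 0.097) and Cdc25b (-0.017 to 0.14) between the siRNAs. Of 40 calls of named probes, 26 were kept in every fit with 1 array left out. Both numbers include probes of Chfr and Clasp2 against control, comparisons on which these genes were chosen, so they are no measure of the other listed genes. Calls lost under settings other than leaving out an array are named above for some genes only. The causes were not tested.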

Other observations

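The probe of Ccnd2 most often above background was well above it on 2 arrays of the 4 in control, on 2 of the 4 with siRNA1 and on none of the 3 with siRNA2, and it read 621% of the control geometric mean on control array 3. The second probe of Cdk1, the kinase that drives entry into mitosis, read 443% on siRNA2 array 1.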
